A study of Mus musculus with 4 samples.

Results

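Pdcd1, Tox, Lag3, Tigit, Ctla4, Havcr2, Cd160, Eomes and Batf are genes of T cell inhibition and exhaustion, and their transcripts were followed here through the circulating white cells of ageing mice. The 9 genes were chosen by symbol, all 9 were among the 32285 genes counted, and each symbol matched 1 gene identifier. Peripheral blood mononuclear cells came from 2 inbred mouse strains, named BL/6 and SM/J in the labels, at 12 and 20 months of age; no treatment, allele or sex is given for any group. The series concerns ageing, genetic background and spinal disc disease in SM/J mice. Heart blood was layered on a density gradient to isolate these cells, and 3' single-cell libraries were made on the 10x Genomics platform, which counts each captured RNA molecule once by its unique molecular identifier (UMI). Both ages of a strain were tagged, mixed and run as 1 10x sample, so strain and run cannot be told apart. Each of the 4 deposited matrices holds 1 strain at 1 age and is called a library here; with 1 library a group, no test between groups was possible. Each library carried 3 tag oligos, and the cells of 1 tag are called an aliquot. The labels and headers do not tell whether an aliquot is an animal, and the spread between aliquots only describes that library.

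When an antigen persists, T cells gain receptors that restrain their activation, together with transcription factors that hold this state. PD-1 (Pdcd1), CTLA-4 (Ctla4), LAG-3 (Lag3), TIGIT (Tigit), TIM-3 (Havcr2) and CD160 (Cd160) are the receptors in this set, binding PD-L1 and PD-L2, CD80 and CD86, MHC class II, CD155, galectin-9 and HVEM, respectively. TOX, EOMES and BATF are the transcription factors. None of these genes is exclusive to exhausted cells: regulatory T cells carry CTLA-4, NK cells use EOMES and CD160, myeloid cells carry TIM-3, plasmacytoid dendritic cells carry LAG-3, and BATF acts in many lymphoid and myeloid cells.

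The matrices held 12299 cells, of which 11596 were kept, between 2407 and 3398 a library, and their gene counts summed to between 14250603 and 30627357 UMIs a library. Cells with at least 2 UMIs of Cd3d, Cd3e and Cd3g together were taken as T cells (1577 cells), and 68 of them that lay in clusters named as another cell type were left out. The 1509 T cells comprised 522 CD8 T cells, with at least 1 UMI of Cd8a or Cd8b1, and 987 other T cells. In the order BL/6 at 12 months, BL/6 at 20 months, SM/J at 12 months and SM/J at 20 months, which is used throughout, the CD8 T cells numbered 212, 138, 114 and 58, and the other T cells 223, 370, 235 and 159. Other cells were named from clusters by marker genes, as NK-like (267 cells), classical monocyte-like (908), nonclassical monocyte-like (1636) and B-like (5798). Classical and nonclassical monocyte-like cells lay mostly in different clusters in the strains, clusters 3 and 5 in BL/6 and clusters 24 and 23 in SM/J. The summed NK markers (8 genes) stood between 1217 and 2908 CPM in the CD8 T cells. CPM is the number of UMIs of a gene in a class and library, scaled to 1e6 UMIs over all genes. All 8 markers were seen in these cells in BL/6 at 20 months, and 7 of them, all but Ncr1, in each other library. The gate was thus not shown to leave out NK cells. The 4 libraries shared between 0 and 3 cell barcodes pairwise.

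All 9 genes are protein coding. In GRCm38 coordinates the receptor genes lie at chr1:94038305-94052553 (Pdcd1, minus strand), chr6:124904361-124911705 (Lag3, minus), chr16:43648867-43664146 (Tigit, minus), chr1:60887000-60915832 (Ctla4, plus), chr11:46454935-46481255 (Havcr2, plus) and chr3:96798763-96829351 (Cd160, minus). Tox lies at chr4:6686353-6991557 on the minus strand, Eomes at chr9:118478212-118486132 on the plus strand and Batf at chr12:85686669-85709087 on the plus strand. Tox and Eomes each overlap an annotated antisense gene (Gm11802 and Gm33460), Cd160 overlaps Pdzk1 on the opposite strand, and the annotated span of Ctla4 holds the pseudogene Rpl18-ps1 on its own strand. The strand setting of the authors' counting is not given in the sources used here.

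For 4 of the genes the 250 bases before the RefSeq start in GRCm38.p6 are shown, read 5' to 3' on the strand of the gene. These genes were picked with the levels given below in view, and not by a ranking. Capitals mark matches to TGANTCA, the AP-1 type of site that BATF-containing dimers recognise, or to GAGGAAGT, an ETS-type site. The windows are chr1:60908775-60909024 (Ctla4, plus), chr11:46454681-46454930 (Havcr2, plus), chr3:96829352-96829601 (Cd160, minus) and chr9:118477939-118478188 (Eomes, plus).
Ctla4: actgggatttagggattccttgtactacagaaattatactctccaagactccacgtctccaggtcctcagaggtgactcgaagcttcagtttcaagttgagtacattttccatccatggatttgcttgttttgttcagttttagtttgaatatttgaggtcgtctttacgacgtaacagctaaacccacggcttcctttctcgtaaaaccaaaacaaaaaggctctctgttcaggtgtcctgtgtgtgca
Havcr2: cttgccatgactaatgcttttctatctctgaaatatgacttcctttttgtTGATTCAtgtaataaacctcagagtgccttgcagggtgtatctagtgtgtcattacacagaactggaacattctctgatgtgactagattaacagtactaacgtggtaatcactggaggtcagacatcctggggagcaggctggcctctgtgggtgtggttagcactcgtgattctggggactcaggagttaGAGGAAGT
Cd160: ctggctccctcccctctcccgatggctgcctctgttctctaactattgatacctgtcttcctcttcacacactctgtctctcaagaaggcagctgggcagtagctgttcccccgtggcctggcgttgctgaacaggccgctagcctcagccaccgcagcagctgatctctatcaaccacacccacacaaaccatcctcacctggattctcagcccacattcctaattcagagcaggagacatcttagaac
Eomes: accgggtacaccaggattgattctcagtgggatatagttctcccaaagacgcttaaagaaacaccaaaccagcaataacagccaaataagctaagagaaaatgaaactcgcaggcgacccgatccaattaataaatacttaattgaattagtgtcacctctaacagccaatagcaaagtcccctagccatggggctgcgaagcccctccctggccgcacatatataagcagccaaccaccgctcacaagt
On either strand, TGANTCA was found once in the Havcr2 window, beginning 200 bases before the start, and in 6.75% of all 32851 promoter windows of this length. GAGGAAGT was found once, also in Havcr2, 8 bases before the start, and in 2.44% of all windows. TGACGTCA, found in 1.55% of all windows, and AGGTGTGA, a T-box type of site found in 1.12%, were in none of the 4 windows shown. A match or its lack describes these letters only. The table holds entries for 7 of the 9 genes and none for Tox and Lag3.

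The 9 genes divided by cell type. Of the 50 Pdcd1 UMIs in the kept cells, 32 were in other T cells, 12 in CD8 T cells and 0 in NK-like or monocyte-like cells, so Pdcd1 lay mostly in T cells, at 6.78 CPM in other T cells and 3.34 CPM in CD8 T cells over all libraries. Tox was found in other T cells (370.8 CPM), NK-like cells (286.3 CPM) and CD8 T cells (207.5 CPM), against 0.775 to 1.86 CPM in monocyte-like and B-like cells. Tigit stood at 14.2 CPM in both T cell classes and 15.4 CPM in NK-like cells, with 0 UMIs in the 908 classical and 1636 nonclassical monocyte-like cells. Eomes, a T-box factor of NK and memory CD8 cells, followed the order NK-like cells (141.8 CPM), CD8 T cells (67.1 CPM) and other T cells (17.8 CPM), and Cd160 the same order at 59.98, 29.5 and 14.4 CPM. Batf was the most widely spread, at 52.1 CPM in other T cells, 36.2 CPM in CD8 T cells, 29.1 CPM in NK-like cells and 19.8 to 25.7 CPM in monocyte-like and B-like cells.

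**Figure D1:**
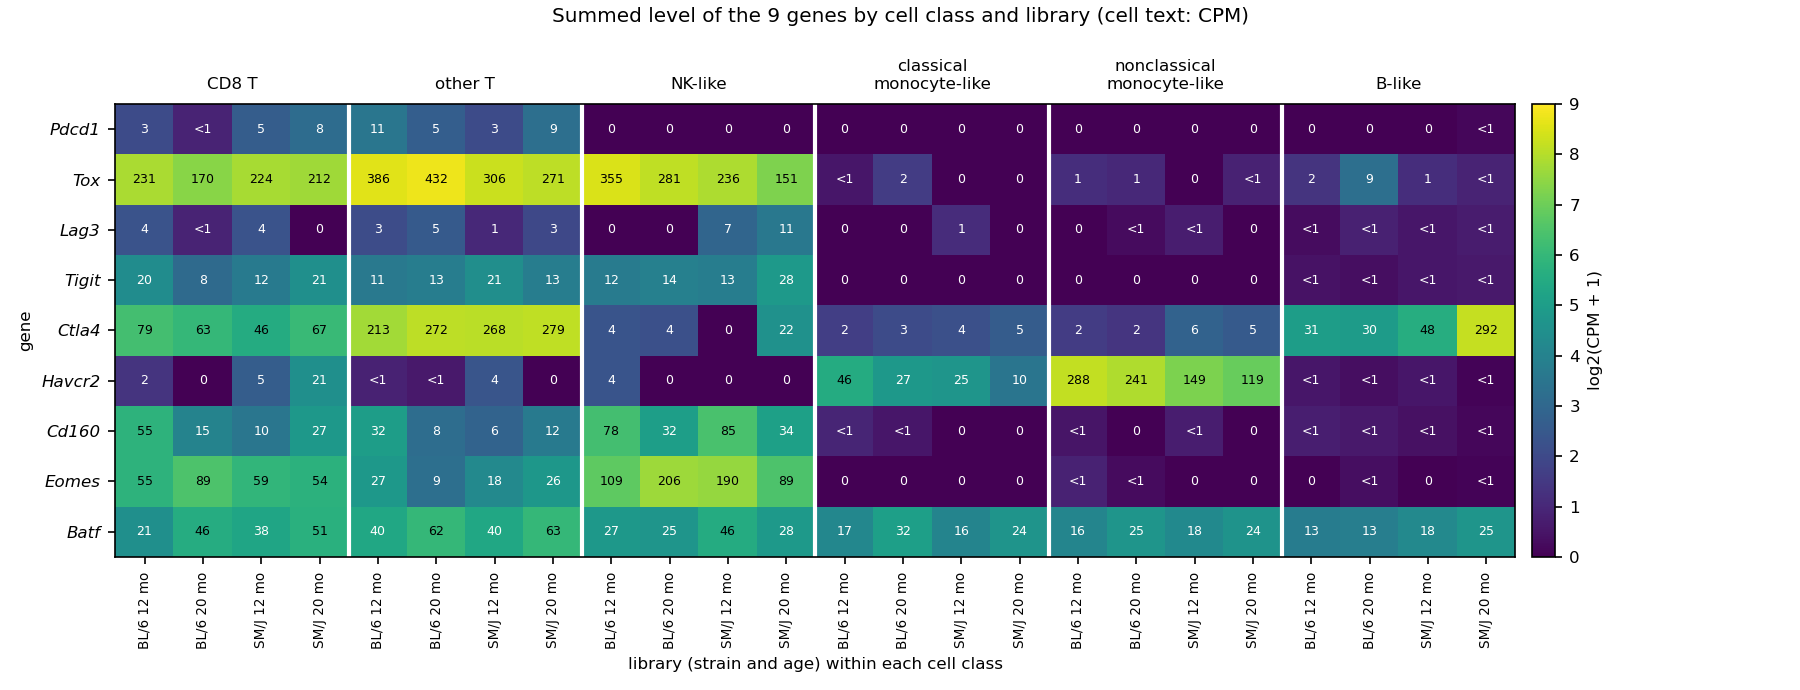
Level of each of the 9 genes (rows) in each cell class and library (columns), coloured by log2(CPM + 1) of the summed UMIs and labelled with the CPM. Tox, Eomes and Cd160 fill the T and NK-like columns, Havcr2 fills the monocyte-like columns, and Ctla4 is high in other T cells and in the B-like cells of SM/J at 20 months (291.9 CPM).

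Havcr2, Lag3 and Ctla4 had most of their UMIs outside T cells. Of 2869 Havcr2 UMIs, 86.2% were in nonclassical monocyte-like cells, where the level was 213.2 CPM, and 14 were in CD8 T cells and 6 in other T cells. Of 143 Lag3 UMIs, 54.5% were in the 181 plasmacytoid dendritic cell-like cells (43.8 CPM), and the T cell classes stood at 2.51 and 3.39 CPM. Of 8554 Ctla4 UMIs, 74.2% were in B-like cells, 5660 of those 6346 UMIs in SM/J at 20 months, while other T cells stood at 256.7 CPM, CD8 T cells at 65.4 CPM and the 79 plasma cell-like cells at 428.1 CPM. In the monocyte-like cells, which should hold no Ctla4, it stood at 1.65 to 6.12 CPM, and Havcr2 in B-like cells stood at 0.236 CPM, which are the levels that free RNA in the droplets could give.

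Between 12 and 20 months, the CD8 T cells of BL/6 had less Cd160 and more Eomes and Batf. A gene counts as measured where the libraries of a comparison hold at least 50 UMIs of it, and as past the fold where the levels differ at least 1.5-fold on the log2(CPM + 1) scale, a difference of 0.58. Of the 9 genes, 5 were measured in this comparison, 2 of them were past the fold upward and 1 downward, where 5.01% of all 5384 measured genes were past it upward and 12.1% downward. All 3 of these also had aliquots that did not overlap between ages, as had 3.18% of all measured genes upward and 8.93% downward. The median log2 ratio of the 5 was -0.32, against -0.13 over all measured genes.

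Cd160, a receptor of cytotoxic lymphocytes that binds HVEM, stood at 55.3 CPM (70 UMIs) in the CD8 T cells of BL/6 at 12 months and 15.1 CPM (18 UMIs) at 20 months. In SM/J it stood at 10.5 CPM (8 UMIs) and 26.8 CPM (10 UMIs). The 3 aliquots of BL/6 at 12 months, between 39.7 and 69.8 CPM, lay above those at 20 months, between 11.3 and 17.6 CPM. The log2 ratio of 20 over 12 months in BL/6 was -1.80 (95% interval -2.58 to -1.07, here and below for counting error only). The share of CD8 T cells with a Cd160 UMI was 19.3% and 10.9% in BL/6, and 6.13% and 1.45% after each cell was thinned to 1000 UMIs.

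Eomes stood at 55.3 CPM (70 UMIs) and 89.1 CPM (106 UMIs) in the CD8 T cells of BL/6, and at 59.0 CPM (45 UMIs) and 53.7 CPM (20 UMIs) in those of SM/J. Its aliquots ran from 49.1 to 60.7 CPM in BL/6 at 12 months and from 73.3 to 102 CPM at 20 months, without overlap, and the log2 ratio was 0.68 (0.24 to 1.13). In SM/J the log2 ratio was -0.14 (-0.96 to 0.64), and the aliquots overlapped. Without aliquot 3 of BL/6 at 20 months the BL/6 ratio was 0.55, short of the fold.

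Batf, the AP-1 family factor, stood at 21.3 CPM (27 UMIs) and 46.2 CPM (55 UMIs) in the CD8 T cells of BL/6. Its aliquots lay between 15.5 and 28.0 CPM at 12 months and between 33.9 and 59.0 CPM at 20 months, and the log2 ratio was 1.08 (0.41 to 1.77). In SM/J it stood at 38.0 CPM (29 UMIs) and 51.0 CPM (19 UMIs), with overlapping aliquots. Tox and Ctla4 in the CD8 T cells of BL/6 were not past the fold, with log2 ratios of -0.44 (-0.71 to -0.18) and -0.32 (-0.77 to 0.12) and overlapping aliquots. Neither value was stable: that of Tox was 0.82, past the fold upward, after thinning to 1000 UMIs and 0.08 as a mean over cells, and that of Ctla4 was -0.94 with at least 2 CD8 UMIs and 0.45 as a mean over cells. In the same cells the 8 NK cell markers summed to 2908 CPM at 12 months and 1217 CPM at 20 months, the 7 classical monocyte markers to 833 and 1405 CPM, and the 6 erythroid markers to 752 CPM (aliquots 37.6 to 2141) and 45.4 CPM, and the part of the NK cell and erythroid markers in these ratios was not tested. With the CD8 T cells that held at least 2 UMIs of monocyte, B cell or platelet markers left out, an alternative added after the levels were seen, the log2 ratios were -1.71 for Cd160, 0.90 for Eomes, 1.01 for Batf and -0.14 for Tox. Of the genes not measured here, Tigit had 25 and 9 UMIs, Lag3 had 5 and 1, Pdcd1 had 4 and 1, and Havcr2 had 2 and 0.

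**Figure D2:**
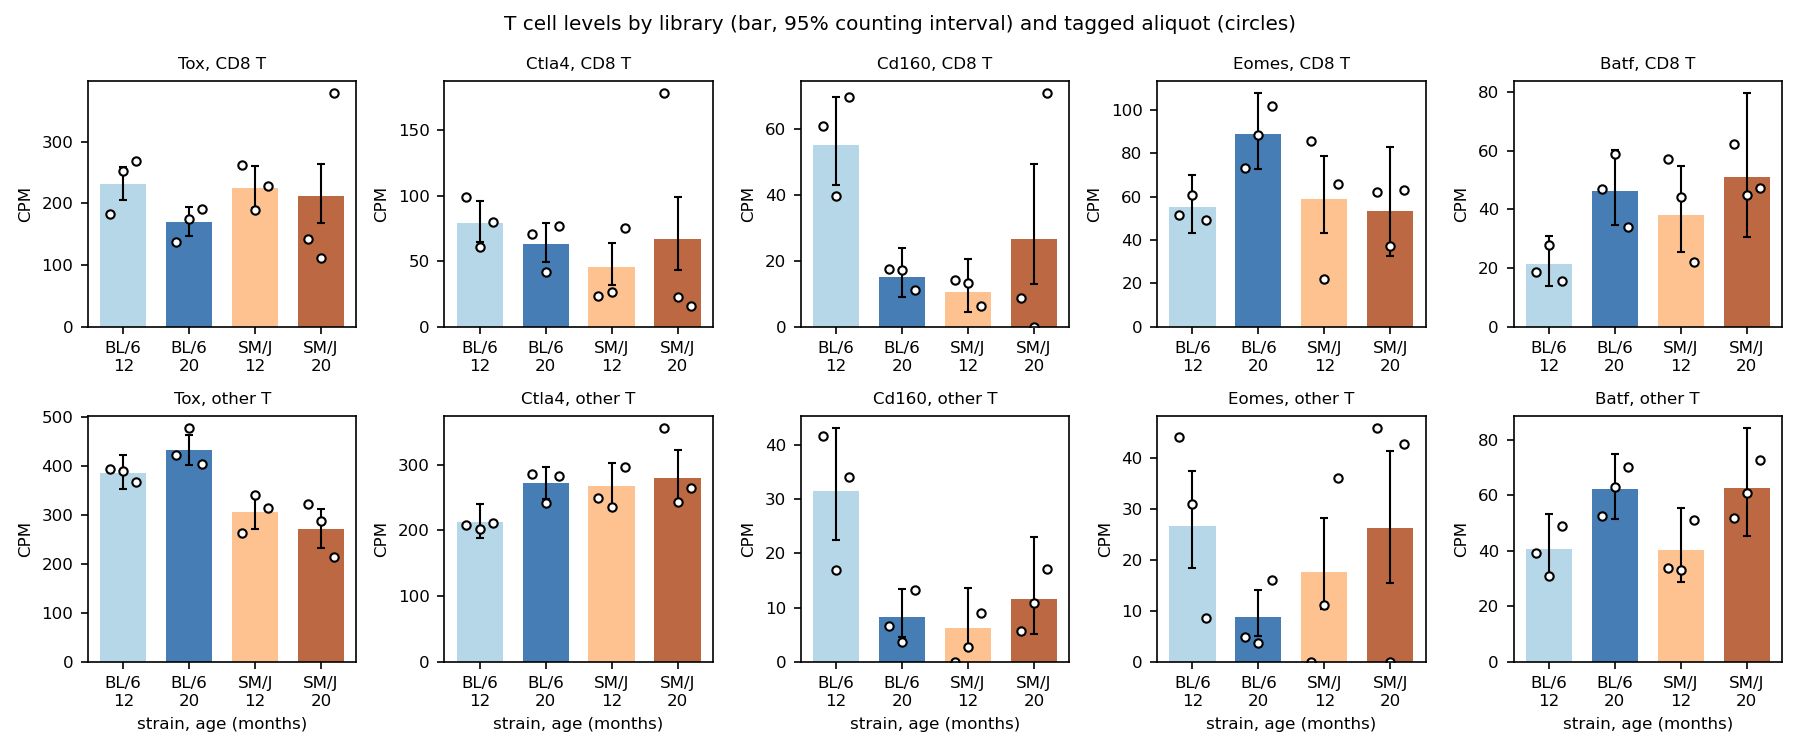
CPM of Tox, Ctla4, Cd160, Eomes and Batf (columns) in CD8 T cells (top) and other T cells (bottom); bars are libraries with 95% counting intervals, circles the 3 tagged aliquots. The BL/6 aliquots of Cd160 lie apart between ages in both rows, and single aliquots of SM/J at 20 months reach 378 CPM of Tox and 178 CPM of Ctla4 in CD8 T cells.

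In the CD8 T cells of SM/J, 3 of the 9 genes were measured between ages and 0 were past the fold in either direction, where 7.37% of the 2932 measured genes were past it upward and 6.89% downward. Tox stood at 224.3 and 211.9 CPM (log2 ratio -0.08, -0.48 to 0.31) and Ctla4 at 45.9 and 67.1 CPM (0.54, -0.25 to 1.30). The 3 aliquots of SM/J at 20 months differed widely: Tox stood at 142, 112 and 378 CPM and Ctla4 at 178, 22.5 and 15.8 CPM. The Ctla4 age ratio was past the fold upward in 8 of 13 alternatives, and it ran from -1.22 to 1.40 when aliquots were left out in turn. Without aliquot 3 of SM/J at 20 months, the Tox ratio was -0.83. The summed level of the 9 genes had log2 ratios of -0.26 (-0.44 to -0.08) for BL/6 and 0.19 (-0.09 to 0.46) for SM/J, neither past the fold. The BL/6 sum was 0.02 without the T cells that held those other markers. Its SM/J value ran from -0.16 to 0.53 when aliquots were left out in turn.

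**Figure D3:**
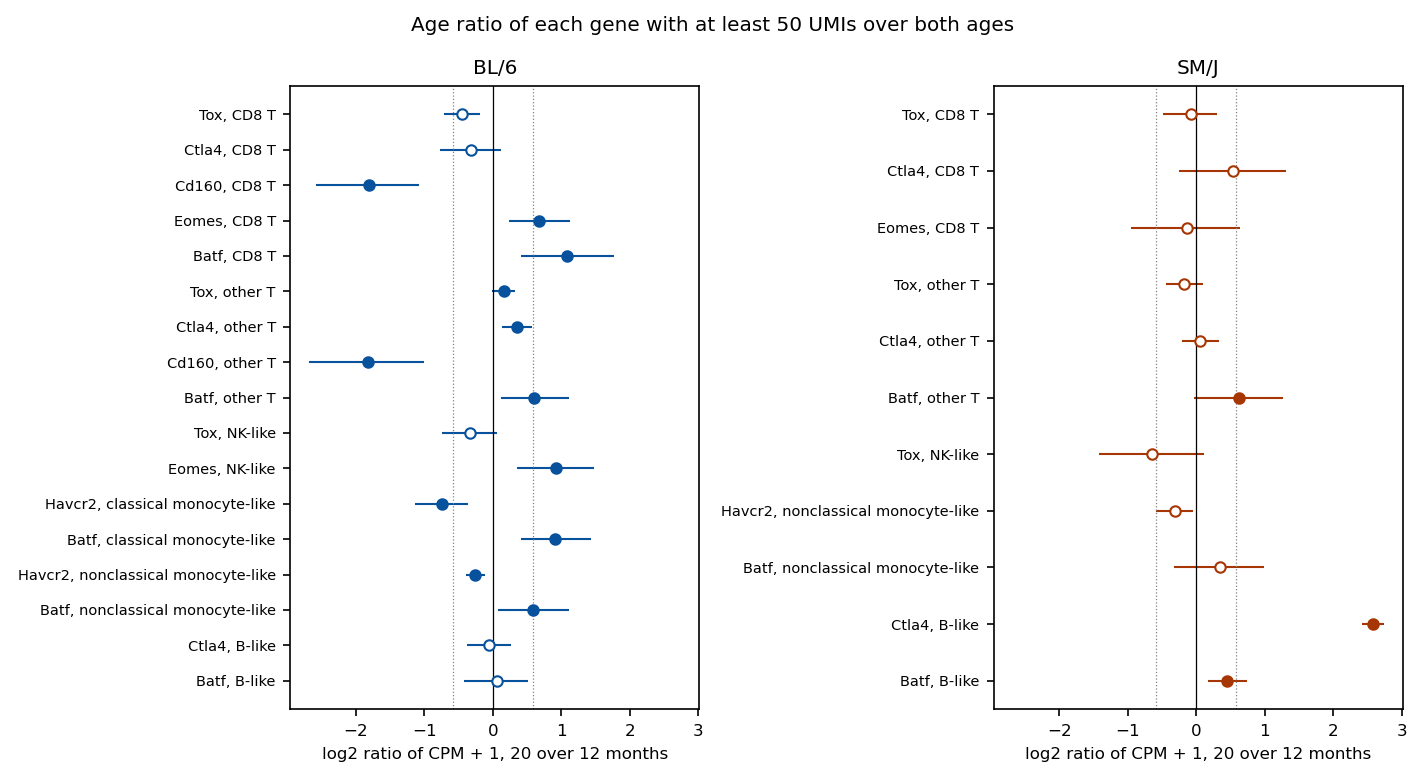
log2 ratio of CPM + 1, 20 over 12 months, of each of the 9 genes with at least 50 UMIs over both ages, in BL/6 (left) and SM/J (right). Lines are 95% counting intervals, filled points are genes whose 3 aliquots do not overlap between ages, and dotted lines mark 1.5-fold; Cd160 lies lowest in BL/6, at -1.80 and -1.83, and Ctla4 in B-like cells highest in SM/J, at 2.58.

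The makeup of the CD8 T cells differed alongside these levels. Cluster 10, led by Ccl5, Cxcr6, Itga1 and Gzmb, held 55.7% of the CD8 T cells of BL/6 at 12 months and 6.52% at 20 months, while in SM/J it held 8.77% and 12.1%. Cluster 9, led by Gzmm and Cd8b1, held 36.8%, 76.8%, 86.0% and 81.0% in library order. Within cluster 9, Cd160 stood at 27.0 CPM (16.0 to 42.7) in BL/6 at 12 months and 12.1 CPM (6.25 to 21.1) at 20 months, and within cluster 10 at 84.4 CPM (60.9 to 114) and 81.4 CPM (22.2 to 208), the latter from 4 UMIs in 9 cells. Within cluster 9 of BL/6, Batf stood at 22.5 CPM (12.6 to 37.1) and 45.4 CPM (33.1 to 60.7), and Eomes at 74.97 CPM (55.6 to 98.8) and 90.7 CPM (73.0 to 112). These clusters were drawn from the same cells and genes, and were set beside the levels after the levels had been seen.

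A division by Ccl5, a chemokine of effector and memory cells, gave another view. CD8 T cells with at least 2 Ccl5 UMIs made up 92.5% and 85.5% of the class in BL/6, and 24.6% and 67.2% in SM/J. Among them in BL/6, the log2 age ratio was -1.85 (-2.66 to -1.11) for Cd160, 0.70 (0.25 to 1.15) for Eomes and 0.99 (0.28 to 1.74) for Batf. These cells are most of the class in BL/6, so their values had to lie close to those of the whole class. This division cannot show what part the makeup had. In BL/6, Ctla4 differed from its class value: it had a log2 ratio of -1.30 (-1.93 to -0.69) in cells with at least 2 Ccl5 UMIs and 1.05 (0.23 to 1.92) in the rest. Tox was likewise at -0.78 (-1.08 to -0.48) and 0.73 (0.09 to 1.40), where the rest is a small part of the class. In SM/J, Ctla4 was at -2.72 (-4.08 to -1.52) and 3.79 (2.46 to 5.22), and Tox at -1.07 (-1.56 to -0.59) and -0.39 (-1.34 to 0.46). The SM/J aliquots at 20 months differed widely in both genes, as given above.

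A few CD8 T cells of SM/J in cluster 10 held a large part of the UMIs of some of these genes in that strain. The 10 such cells at 12 months stood at 1905 CPM of Tox and 651.8 CPM of Ctla4 and held all 4 Pdcd1 UMIs and all 4 Havcr2 UMIs of the class, 76 of 171 Tox and 26 of 35 Ctla4 UMIs, but 1 of 8 Cd160, 6 of 45 Eomes and 2 of 29 Batf UMIs. The 7 such cells at 20 months stood at 1212 CPM of Tox and 279.7 CPM of Eomes, and held 7 of 8 Havcr2, 8 of 10 Cd160, 39 of 79 Tox and 9 of 20 Eomes UMIs, but 3 of 25 Ctla4 and 2 of 19 Batf UMIs. The 118 cells of BL/6 at 12 months in the same cluster stood at 213.1 CPM of Tox and 94.5 CPM of Ctla4. With so few cells the intervals are wide, 1501 to 2385 CPM and 862 to 1657 CPM for Tox in SM/J.

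Cells with a UMI of at least 4 of the 9 genes were few at both ages. At least 2 of the genes were found in 209 of 522 CD8 T cells and 380 of 987 other T cells. Such counts are of detected UMIs, and do not limit the share of cells that express several of the genes. A UMI of at least 4 of the genes was found in 10 of 212, 6 of 138, 6 of 114 and 4 of 58 CD8 T cells in library order, or 4.72%, 4.35%, 5.26% and 6.90%, with overlapping intervals. Of these 26 cells, 25 held Tox, 20 Ctla4, 15 Eomes, 11 Tigit, 9 Havcr2 and 6 Pdcd1. In the SM/J libraries 9 of the 10 such cells lay in cluster 10, and 8 of the 10 were in aliquot 3 of their library. Among other T cells, 33 of 987 held at least 4 of the genes, from 2.98% to 3.59% a library, and 25 of the 33 lay in cluster 12, led by Ikzf2, Icos and Tox, so Tox is part of what defines that cluster. These counts were made after the levels had been seen, and the median depth of the cells with at least 4 of the genes was 4981 UMIs in CD8 T cells and 4341 UMIs in other T cells, against 6641 and 4506 UMIs in the whole classes.

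Pdcd1 itself was sparse. Cells with a Pdcd1 UMI numbered 3, 1, 2 and 3 among CD8 T cells and 9, 7, 3 and 3 among other T cells, from 4, 1, 4 and 3 UMIs and 13, 10, 3 and 6 UMIs. Of the 22 such other T cells, 19 also held Tox and 13 held Ctla4, and of the 9 such CD8 T cells, 7 held Tox and 6 held Ctla4. After thinning to 1000 UMIs, Tox was in 7 of 10 other T cells with Pdcd1 (70.0%, exact interval 34.8 to 93.3%) and in 25.1% (22.4 to 27.9%) of those without it, while Lef1, a factor of naive T cells, was in 0 of 10 and in 38.4%. A count of 0 in 10 cells allows a share of up to 30.8% of cells with a UMI at that depth, and does not limit the share that express the gene. No difference in Pdcd1 between ages or strains could be read at this depth.

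Lag3 and Tigit were also thinly counted in T cells. Lag3, whose product binds MHC class II, had 5, 1, 3 and 0 UMIs in CD8 T cells and 4, 9, 1 and 2 in other T cells. Tigit, whose product binds CD155, had 25, 9, 9 and 8 UMIs in CD8 T cells and 14, 24, 20 and 9 in other T cells. In the CD8 T cells of BL/6 Tigit stood at 19.7 CPM (12.8 to 29.1) and 7.57 CPM (3.46 to 14.4), with aliquots from 10.3 to 35.0 CPM and from 2.26 to 11.7 CPM that overlapped. In plasmacytoid dendritic cell-like cells, Lag3 stood at 33.6, 33.3, 89.1 and 27.2 CPM in library order, from 12, 20, 34 and 12 UMIs, and the SM/J value at 12 months had an interval (61.7 to 124) above the values of the other libraries.

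In other T cells of BL/6, Cd160 was again lower and Batf higher at 20 months, and in SM/J Batf was the only one of the measured genes past the fold. In BL/6, 4 genes were measured, 1 was past the fold upward and 1 downward, where 3.48% of 6058 measured genes were past it upward and 6.52% downward. Both also had aliquots apart, as had 2.34% of measured genes upward and 4.04% downward. Cd160 stood at 31.6 CPM (39 UMIs) and 8.19 CPM (15 UMIs), with aliquots from 16.9 to 41.7 CPM and from 3.70 to 13.2 CPM that did not overlap, and a log2 ratio of -1.83 (-2.68 to -0.998). The NK cell markers summed to 882 CPM (815 to 949.9) and 533 CPM (453 to 661) in the same cells, and their part was not tested. Cells with at least 2 Ccl5 UMIs were 32.3% of the class at 12 months and 13.8% at 20 months, and held 34 of the 39 and 12 of the 15 Cd160 UMIs. With the subsets at 20 months weighted by their shares at 12 months, the log2 ratio of Cd160 in other T cells was -0.87 in place of -1.83.

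Batf in other T cells stood at 40.5, 62.2, 40.5 and 62.6 CPM in library order, from 50, 114, 39 and 43 UMIs. The levels at 12 months were alike in the strains, and so were those at 20 months. In BL/6 the aliquots ran from 30.9 to 49.1 CPM at 12 months and from 52.6 to 70.3 CPM at 20 months, and the log2 ratio was 0.61 (0.13 to 1.11). In SM/J they ran from 33.2 to 51.0 CPM and from 51.7 to 72.7 CPM, with a log2 ratio of 0.62 (-0.03 to 1.27), where 3 genes were measured and 11.0% of 4136 measured genes were past the fold upward and 2.68% downward. Both ratios lie close to the fold and fell short of it in several alternatives, at 0.47 without T cells that held monocyte, B cell or platelet markers in BL/6 and at 0.48 with a mitochondrial limit of 5% in SM/J. In cluster 13, led by Lef1 and Tcf7, Batf stood at 30.2, 57.9, 36.0 and 78.6 CPM, in cluster 12 at 66.9, 86.2, 55.4 and 70.3 CPM, and in cluster 10 of BL/6 at 23.3 and 23.1 CPM.

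Ctla4 and Tox were not past the fold between ages in other T cells, although Ctla4 was after thinning, at 0.80 in BL/6 and 0.62 in SM/J. Ctla4 stood at 213.0 and 271.9 CPM in BL/6 (log2 ratio 0.35, 0.13 to 0.57, aliquots apart) and at 267.7 and 279.5 CPM in SM/J (0.06, -0.21 to 0.34). Tox stood at 386.3 and 431.8 CPM in BL/6 and at 306.1 and 270.8 CPM in SM/J, with log2 ratios of 0.16 and -0.18. Between strains, Tox in other T cells was lower in SM/J at 20 months by a log2 ratio of -0.67 (-0.91 to -0.44), with aliquots from 214 to 322 CPM in SM/J and from 404 to 478 CPM in BL/6, where 12.3% of 5511 measured genes were past the fold upward and 10.3% downward. In the younger mice the strain ratio of Tox was -0.33 (-0.55 to -0.12), and 0 of the 4 measured genes were past the fold, against 6.06% of genes upward and 16.7% downward. The 20-month strain ratio of Tox was past the fold in 9 of 14 alternatives, and was -0.53 without the T cells that held monocyte, B cell or platelet markers and -0.52 without aliquot 3 of SM/J at 20 months. The 12-month ratio was past the fold with the UMI gate alone (-0.63) and after thinning (-0.89). The 7 classical monocyte markers summed to 230 CPM in BL/6 and 1150 CPM in SM/J in other T cells at 20 months, and the erythroid markers to 60.7 and 2975 CPM (SM/J aliquots 108 to 7742) at 12 months; the part of the erythroid markers was not tested.

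CTLA-4 is a working receptor of regulatory T cells, whose defining factor is Foxp3. A Foxp3 UMI was found in 6, 9, 8 and 6 other T cells, and since this transcript is sparse the number of regulatory T cells cannot be read from it. Ctla4 stood at 984.6 CPM (654 to 1423), 1321 CPM (992 to 1723), 1175 CPM (853 to 1577) and 469.8 CPM (250 to 803) in them, and 6 of 6, 9 of 9, 8 of 8 and 4 of 6 of these cells held it. Cd160 was at 0 UMIs in these cells of all 4 libraries. Cluster 12 as a whole held 193, 409, 220 and 166 of the 263, 498, 258 and 192 Ctla4 UMIs of other T cells, at 478.1, 766.8, 870.1 and 556.0 CPM, against 83.6, 78.2, 49.8 and 94.3 CPM in cluster 13. The share of cluster 12 among other T cells was 35.9%, 31.9%, 28.1% and 52.2% in library order and that of cluster 13 was 36.8%, 55.4%, 62.6% and 30.2%, so the near equal class levels of Ctla4 in SM/J stood beside unlike makeup and unlike levels within both clusters. After thinning to 1000 UMIs, Ikzf2 was found in 26.5% (20.3 to 33.5%) of 185 other T cells with a Ctla4 UMI and 5.99% (4.45 to 7.86%) of 802 without, Tox in 38.4% (31.3 to 45.8%) and 22.6% (19.7 to 25.6%), and Lef1 in 22.2% (16.4 to 28.8%) and 41.6% (38.2 to 45.1%). Lag3 was found in 7 of the 185 and 0 of the 802.

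Eomes was read in the same way. After thinning, 21 other T cells held an Eomes UMI. Ctla4 was found in 3 of these (14.3%, 3.05 to 36.3%) and 18.8% of the rest. Gzmk, a granzyme of memory T cells, was found in 42.9% (21.8 to 66.0%) of these and 1.97% (1.19 to 3.05%) of the rest, and Ccl5 in 76.2% (52.8 to 91.8%) and 15.0% (12.8 to 17.4%). In CD8 T cells, Ctla4 was seen in 36 thinned cells and Eomes in 28, and 0 held both. With so few cells of each, a count of 0 does not set these genes apart. At full depth some cells held both, since 20 of the 26 cells with at least 4 of the genes held Ctla4 and 15 held Eomes. Tox was found in 18 of the 36 cells with Ctla4 (32.9 to 67.1%) and 12.8% (9.92 to 16.1%) of those without. These shares pool the 4 libraries and are descriptions of the cells, which are not replicates.

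Between strains, Cd160 at 12 months and Eomes at 20 months were past the fold in CD8 T cells with aliquots apart, both lower in SM/J. Of all measured genes, 15.3% and 8.58% were so downward, and 5.72% and 4.74% upward. At 12 months, 5 of the 9 genes were measured, 1 was past the fold upward in SM/J (Batf, 0.81, 0.03 to 1.59) and 2 downward, where 7.30% of 4810 measured genes were past it upward and 20.4% downward. Cd160 was lower in SM/J by a log2 ratio of -2.29 (-3.41 to -1.30), with aliquots from 6.27 to 14.3 CPM against 39.7 to 69.8 CPM, and Ctla4 was lower by -0.77 (-1.36 to -0.21) with overlapping aliquots. The NK cell markers stood at 2908 CPM in BL/6 and 1244 CPM in SM/J in these cells, and the nonclassical monocyte markers at 281 and 123 CPM; the part of the NK cell markers was not tested. The Ctla4 difference turned to 0.04 as a mean over cells in place of summed counts. Batf fell to 0.51 without aliquot 1 of SM/J at 12 months. Without the T cells that held monocyte, B cell or platelet markers, Ctla4 was -0.38 and Batf 0.55, both short of the fold. Tox, at -0.04, was 1.49 after thinning to 1000 UMIs and 0.57 as a mean over cells. At 20 months, 4 genes were measured, and Eomes alone was past the fold, where 9.87% of 3859 genes were past it upward and 14.2% downward. Eomes was lower in SM/J by -0.72 (-1.47 to -0.03) with aliquots apart, and past the fold in 11 of 13 alternatives. Ctla4, at 0.09, ran from -0.61 to 1.02 over 13 alternatives, and was -1.66 without aliquot 1 of SM/J at 20 months. Tox, at 0.32, was 0.81 with at least 2 CD8 UMIs. The comparisons between ages and between strains share libraries: the high Cd160 of BL/6 at 12 months enters both.

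In NK-like cells, Eomes was higher at 20 months in BL/6. It stood at 108.7 CPM (53 UMIs), 206.2 CPM (58 UMIs), 190.3 CPM (29 UMIs) and 89.4 CPM (16 UMIs) in library order. The BL/6 aliquots, from 90.4 to 137 CPM and from 156 to 273 CPM, did not overlap, and the log2 ratio was 0.92 (0.36 to 1.48). Of the 2 genes measured between ages in BL/6, Eomes was the 1 past the fold, where 7.43% of 2625 measured genes were past it upward and 7.39% downward. In SM/J Eomes had fewer than 50 UMIs over both ages, and its aliquots at 20 months, at 0, 131 and 84.0 CPM, scattered. Against BL/6, Eomes was the 1 of 3 measured genes past the fold at 12 months, higher in SM/J (log2 ratio 0.80, 0.10 to 1.48), and 1 of 2 at 20 months, lower in SM/J (-1.20, -2.08 to -0.39), where 9.85% and 10.2% of measured genes were past the fold upward and 15.0% and 11.8% downward. Without aliquot 1 of BL/6 at 20 months, the BL/6 age ratio was 0.58, just short of the fold, and after thinning to 1000 UMIs it was 1.87.

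Tox in NK-like cells stood at 354.6, 280.9, 236.2 and 150.9 CPM in library order, from 173, 79, 36 and 27 UMIs. The age ratio was -0.34 (-0.74 to 0.06) for BL/6 and -0.64 (-1.41 to 0.11) for SM/J, where Tox was the 1 measured gene and was past the fold downward, and 8.96% of 1027 genes were past the fold upward and 5.55% downward. The aliquots overlapped in both strains, and without aliquot 1 of SM/J at 12 months the SM/J ratio turned to 0.34. Tox was the other gene past the fold between strains at 20 months, lower in SM/J by -0.89 (-1.58 to -0.25) with aliquots apart. At 12 months its ratio was -0.58 (-1.14 to -0.06), just short of the fold, and -1.57 without aliquot 1 of SM/J at 12 months. In these cells at 20 months, the T cell markers summed to 295 CPM (202 to 417) in BL/6 and 129 CPM (64.1 to 183) in SM/J. The B cell markers summed to 24.9 and 83.8 CPM, and the part of both lists was not tested. Cd160 had 38, 9, 13 and 6 UMIs in NK-like cells, or 77.9, 32.0, 85.3 and 33.5 CPM, which is short of 50 UMIs in either age comparison.

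Havcr2 was the receptor of the set that belonged to monocytes. In nonclassical monocyte-like cells, which patrol vessel walls, it stood at 287.8 CPM (697 UMIs), 241.0 CPM (1169 UMIs), 148.6 CPM (461 UMIs) and 119.4 CPM (147 UMIs) in library order, and the share of cells with a UMI was 72.4%, 64.4%, 50.2% and 40.4%, or 18.8%, 20.8%, 12.2% and 12.4% after thinning. The aliquots of BL/6, from 232 to 339 CPM over both ages, lay above all those of SM/J, from 102 to 154 CPM. The strain ratio was -0.95 (-1.12 to -0.78) in the younger mice, -1.01 (-1.26 to -0.76) in the older ones, and the age ratios were -0.26 and -0.31, short of the fold. Of the 2 genes measured in each strain comparison, Havcr2 was past the fold downward, where 6.83% and 8.89% of genes were past it downward and 14.2% and 9.14% upward at 12 and 20 months. Havcr2 helps define cluster 5, which holds nearly all of these cells in BL/6, and the B cell markers stood at 927 and 450 CPM in these cells in SM/J against 40.9 and 34.6 CPM in BL/6. The classical monocyte markers stood at 7242 and 6720 CPM in BL/6 against 2562 and 3024 CPM in SM/J, and the erythroid markers at 49.1, 1126, 2260 and 81.2 CPM in library order; the part of these lists in the difference was not tested.

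In classical monocyte-like cells, Havcr2 was lower and stood at 45.5 CPM (103 UMIs), 26.8 CPM (118 UMIs), 25.1 CPM (21 UMIs) and 10.3 CPM (8 UMIs). In BL/6 the log2 age ratio was -0.75 (-1.13 to -0.36), with aliquots from 37.6 to 55.6 CPM and from 19.03 to 33.7 CPM that did not overlap. Batf went the other way in BL/6, at 16.8 CPM (38 UMIs) and 32.4 CPM (143 UMIs), with aliquots from 10.1 to 20.8 CPM and from 23.8 to 38.3 CPM and a log2 ratio of 0.91 (0.41 to 1.43). Both of the 2 measured genes were thus past the fold, 1 in each direction, where 5.31% of 8113 genes were past it upward and 5.12% downward. The Havcr2 ratio was -0.52, short of the fold, without aliquot 1 of BL/6 at 12 months. The 6 platelet markers summed to 195 CPM at 12 months (aliquots 182 to 201) and 452 CPM at 20 months (393 to 528) in these BL/6 cells. The 8 nonclassical monocyte markers summed to 718 CPM (712 to 728) and 499.7 CPM (451 to 555), and the part of both lists in these ratios was not tested. In SM/J, where 0 of the 9 genes reached 50 UMIs and 5.80% of genes were past the fold upward and 7.83% downward, Batf stood at 15.5 CPM (13 UMIs) and 24.5 CPM (19 UMIs). In nonclassical monocyte-like cells Batf stood at 16.1, 24.7, 18.4 and 23.6 CPM, with log2 age ratios of 0.59 (0.08 to 1.12) in BL/6, at the fold and short of it in 7 of 14 alternatives, and 0.34 (-0.32 to 0.98) in SM/J, where 5.89% and 2.89% of genes were past it upward and 4.64% and 5.92% downward. Between strains in classical monocyte-like cells, the Havcr2 ratio was -0.84 (-1.55 to -0.17) at 12 months and -1.29 (-2.38 to -0.34) at 20 months, where 8.75% and 10.7% of genes were past the fold downward and 13.1% and 12.1% upward. The value at 20 months rests on 8 UMIs in SM/J and its aliquots overlapped. It turned to 0.05 under a finer clustering and was -3.26 without aliquot 2 of SM/J at 20 months. That at 12 months was -0.57 without aliquot 2 of SM/J at 12 months. At 12 months the classical monocyte markers summed to 26400 CPM in BL/6 and 20364 CPM in SM/J, and the nonclassical monocyte markers to 718 and 1050 CPM. At 20 months the platelet markers summed to 452 and 115 CPM, and the part of these lists between strains was not tested.

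**Figure D4:**
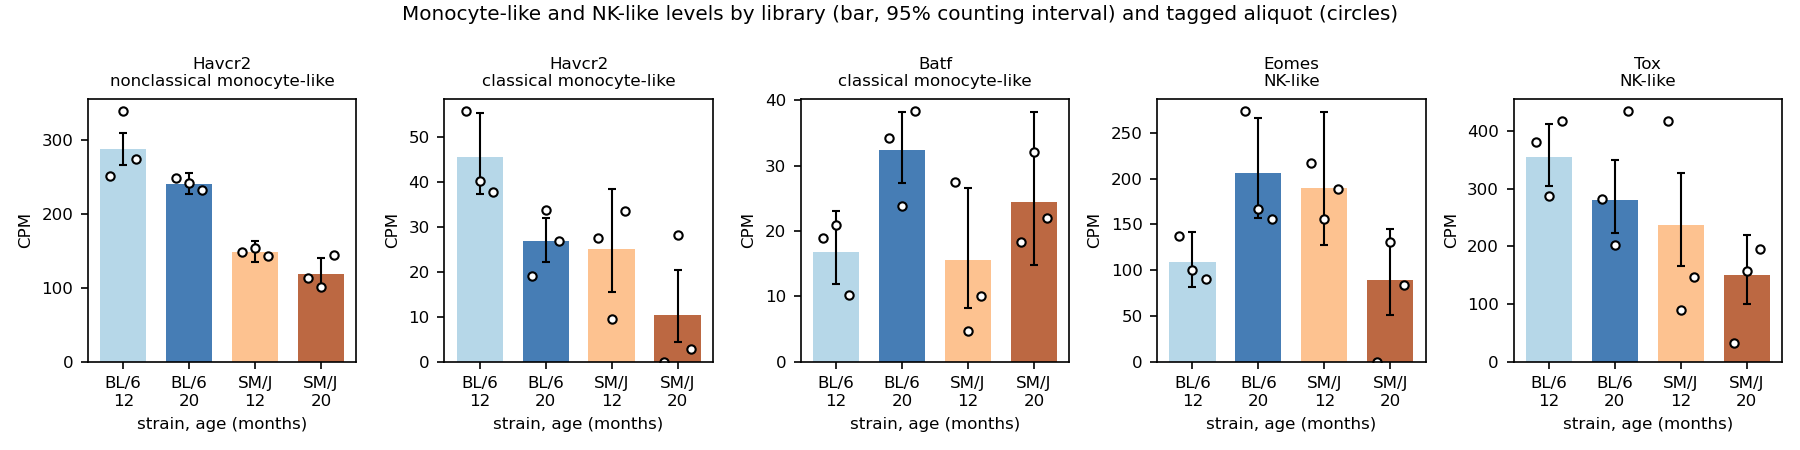
CPM of Havcr2 in nonclassical and classical monocyte-like cells, Batf in classical monocyte-like cells, and Eomes and Tox in NK-like cells, by library (bars with 95% counting intervals) and aliquot (circles). All BL/6 aliquots of Havcr2 in nonclassical monocyte-like cells lie above 231 CPM and all SM/J aliquots below 155 CPM.

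Ctla4 had most of its UMIs in the B-like cells of SM/J at 20 months, a class added after its levels were seen. In B-like cells it stood at 31.1 CPM (264 UMIs), 29.99 CPM (114 UMIs), 48.1 CPM (308 UMIs) and 291.9 CPM (5660 UMIs) in library order. The 3 aliquots of SM/J at 20 months stood at 298, 293 and 285 CPM, and those of the other libraries between 21.6 and 54.8 CPM. The log2 age ratio was 2.58 (2.41 to 2.74) in SM/J and -0.05 (-0.37 to 0.26) in BL/6, where 13.7% and 2.99% of measured genes were past the fold upward and 16.0% and 2.55% downward. The BL/6 value was -0.70 after thinning and 0.73 with a mitochondrial limit of 5%, past the fold in both directions. The share of B-like cells with a Ctla4 UMI was 6.93%, 6.10%, 14.1% and 59.4%, and 1.86%, 1.05%, 2.48% and 19.7% after thinning to 1000 UMIs, which sets aside their unequal median depths of 3624, 3430, 4099 and 9629 UMIs. The T cell markers (9 genes) summed to 6.45 CPM in the B-like cells of SM/J at 20 months, against 7.89 to 13.1 CPM in the B-like cells of the other libraries. The 6 plasma cell markers summed to 349, 342, 948 and 1464 CPM in B-like cells in library order, with aliquots from 941 to 955 CPM and from 1434 to 1521 CPM in SM/J, and the 5 plasmacytoid dendritic cell markers to 358, 389, 707 and 807 CPM; the part of both lists in the Ctla4 difference was not tested.

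These UMIs lay in few clusters. Cluster 25, led by Zcwpw1, Gnb3 and Rdh12, held 843 of the 1602 B-like cells of SM/J at 20 months and 81.7% of their Ctla4 UMIs, at 368.8 CPM (358 to 380), with a UMI in 89.6% of its cells. Cluster 19, led by the division genes Mki67 and Top2a, stood at 254.8 CPM (237 to 274) in 69 cells. Cluster 25 held 847 of its 862 kept cells from this library, so its level describes SM/J at 20 months almost alone. What sets its cells apart, and whether it is a cell type, was not tested. Clusters present at both ages showed smaller differences: cluster 20 of SM/J stood at 59.9 CPM (52.5 to 68.0) at 12 months and 95.3 CPM (84.3 to 107) at 20 months, and cluster 6 of BL/6 at 96.6 CPM (84.0 to 111) and 121.2 CPM (97.6 to 149). Without clusters 19 and 25, set aside after their values were seen, the B-like cells stood at 31.2, 30.2, 42.9 and 75.3 CPM, and the SM/J age ratio was 0.80.

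**Figure D5:**
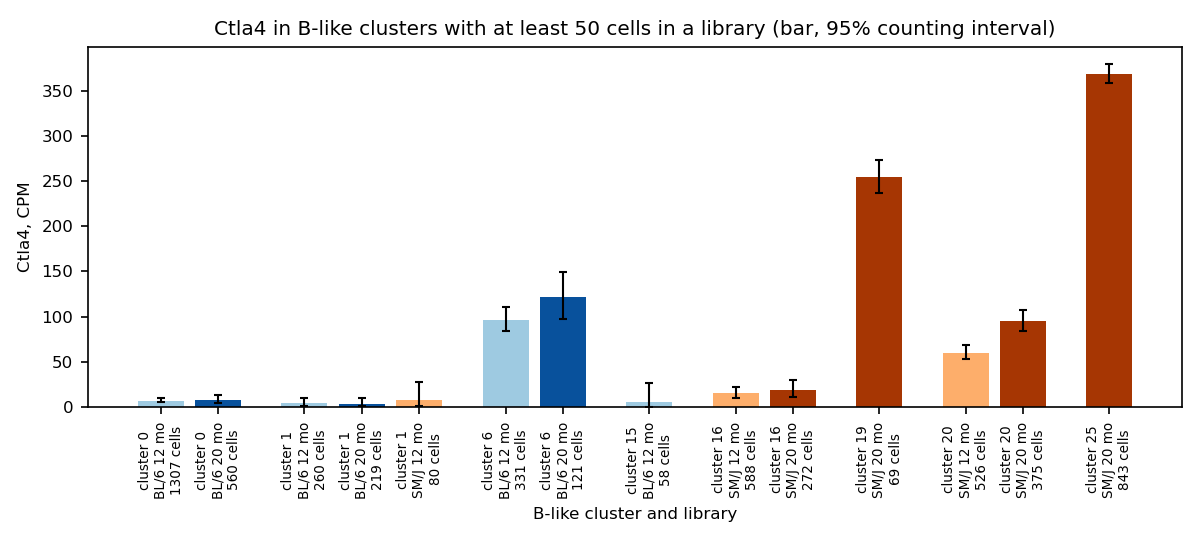
CPM of Ctla4 in each B-like cluster of at least 50 cells in a library, with 95% counting intervals; colours are strain and age, and the number of cells is under each bar. Clusters 25 and 19, from SM/J at 20 months, reach 368.8 and 254.8 CPM, clusters 6 and 20 lie between 59.9 and 121.2 CPM, and clusters 0, 1, 15 and 16 lie below 19 CPM.

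Plasma cell-like cells carried Ctla4 in both strains. In the libraries with more than 5 of them, it stood at 369.4 CPM (321 to 423) in 46 cells of BL/6 at 20 months and 505.3 CPM (436 to 583) in 26 cells of SM/J at 20 months, with a UMI in 76.1% and 88.5% of the cells. Tox was found in the same BL/6 plasma cell-like cells at 73.5 CPM (41 UMIs) and had 0 UMIs in those of SM/J at 20 months, where the exact upper limit was 9.86 CPM. In B-like cells Batf stood at 12.9, 13.4, 17.8 and 24.7 CPM, with an age ratio of 0.45 (0.17 to 0.74) in SM/J, short of the fold. Set against BL/6, the B-like cells of SM/J had more Ctla4, by a log2 ratio of 0.61 (0.38 to 0.85) in the younger mice and 3.24 (2.98 to 3.51) in the older ones, and at 20 months more Batf, by 0.83 (0.44 to 1.25). Without clusters 19 and 25, the 20-month ratio was 0.56 for Batf, short of the fold, and 1.29 for Ctla4, and after thinning that of Ctla4 was 4.35. Tox stood at 8.68 CPM (33 UMIs in 10 cells) in BL/6 and 0.877 CPM (17 UMIs in 8 cells) in SM/J at 20 months, a log2 ratio of -2.37 that rests on few cells, with no alternative run. The 12-month ratio of Ctla4 ran from 0.45 to 2.10 over the alternatives and was past the fold in 12 of 15. Of all genes measured at 12 and 20 months, 10.3% and 21.5% of genes were past the fold upward and 15.2% and 29.7% downward.

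The ligands of these receptors and related genes were read from a list of 17 genes, in the cells that present them. In classical monocyte-like cells, 10 were measured in both strains, and 2 in BL/6 and 7 in SM/J were past the fold downward at 20 months, with 0 upward in either, and the medians were -0.44 and -0.77 beside 0.02 and 0.00 over all genes. Lgals9, which encodes the TIM-3 ligand galectin-9, stood at 76.5 and 48.3 CPM in BL/6 (log2 ratio -0.65, -0.94 to -0.36) and 108.7 and 68.3 CPM in SM/J (-0.66, -1.17 to -0.16). Fgl2, which encodes a secreted immune suppressor and is on the list without being a ligand of these receptors, had log2 ratios of -0.81 (-1.09 to -0.53) and -0.99 (-1.53 to -0.47), and both genes had aliquots apart in both strains. In classical monocyte-like cells 5.12% and 7.83% of all genes were past it downward, and 4.08% and 5.08% also had aliquots apart. The nonclassical monocyte markers summed to 1050 and 784 CPM in these cells of SM/J and were lower at 20 months in BL/6 too, as given above; their part in these counts was not tested. In nonclassical monocyte-like cells, 12 were measured, 6 in BL/6 and 2 in SM/J were past the fold downward and 1 in BL/6 upward, where 4.64% and 5.92% of all genes were past it downward and 5.89% upward in BL/6. The medians were -0.56 and -0.12 beside 0.04 and -0.03 over all genes. The 6 were Cd274, which encodes PD-L1, Fgl2, and the MHC class II genes H2-Aa, H2-Ab1, H2-Eb1 and Cd74, the ligands of LAG-3 and their chaperone, and the 2 were Cd80 and Lgals9. Cd274 stood at 304.0 and 157.3 CPM in BL/6 and H2-Ab1 at 690.1 and 159.6 CPM. Cd80, a ligand of CTLA-4 and CD28, stood at 14.9 and 32.2 CPM in BL/6 (1.06, 0.56 to 1.59) and 57.7 and 35.7 CPM in SM/J (-0.68, -1.17 to -0.20), with aliquots apart in opposite directions.

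Of the other receptors of T cells (20 genes), 11 were measured in CD8 T cells, of which 1 in BL/6 (Cd226) and 2 in SM/J (Cd226 and Btla) were past the fold downward, and 0 in BL/6 and 2 in SM/J (Cd6 and Vsir) upward. Over all genes, 12.1% and 6.89% were past it downward and 5.01% and 7.37% upward, and the medians of the list were 0.14 and 0.07. In other T cells 11 were measured, with 1 downward in BL/6 and 3 upward in SM/J, where 6.52% of all genes were downward in BL/6 and 11.0% upward in SM/J. Cd226, the activating receptor that shares ligands with TIGIT, was lower at 20 months in the CD8 T cells of both strains, at 235.4 and 108.4 CPM in BL/6 (-1.11, -1.42 to -0.81) and 129.9 and 69.8 CPM in SM/J (-0.89, -1.56 to -0.26), where the SM/J aliquots overlapped. In other T cells its log2 ratio was -0.98 (-1.25 to -0.72) for BL/6 and 0.92 (0.49 to 1.36) for SM/J, where the aliquots overlapped. Of the 22 transcription factors, 10 were measured in CD8 T cells, with 2 upward (Bach2 and Jun) and 3 downward (Id2, Zeb2 and Ikzf3) in BL/6 and 1 upward in SM/J (Zeb2), beside the same shares of all genes, and the medians were -0.06 and 0.07. Zeb2, a factor of terminal effector cells, had a log2 ratio of -1.97 (-2.30 to -1.66) in BL/6, and in SM/J of 1.62 (0.98 to 2.28) with overlapping aliquots.

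Of the 14 effector genes, most of those measured in the T cells of BL/6 were past the fold downward at 20 months. In CD8 T cells 8 were measured, and 6 were past the fold downward and 1 upward in BL/6, against 0 in SM/J, with medians of -0.88 and 0.23 beside -0.13 and -0.01 over all genes measured, of which 12.1% were downward and 5.01% upward in BL/6. The summed NK cell markers and the share of cluster 10 were lower at 20 months in the same cells, as given above, and their part in these counts was not tested. In other T cells 5 of 6 were downward in BL/6 and 4 of 6 upward in SM/J, with medians of -0.99 and 0.88 beside -0.05 and 0.11 over all genes, of which 6.52% were downward in BL/6 and 11.0% upward in SM/J. In the other T cells of BL/6 the share of cluster 10 was 21.5% and 10.5%. Cxcr6, a homing receptor of tissue memory cells, was at -1.35 (-1.75 to -0.96) and 1.20 (0.43 to 2.00) in other T cells, and Gzmk at -0.81 (-1.54 to -0.08) and 0.998 (0.19 to 1.82), where the Gzmk aliquots overlapped in both strains. In NK-like cells 9 were measured, with 1 upward in BL/6 and 1 downward in SM/J and medians of 0.18 and 0.05, where 7.43% of all genes were upward in BL/6 and 5.55% downward in SM/J. Both were Ccl3, a chemokine of activated cells, at 0.93 (0.63 to 1.23) and -1.03 (-1.61 to -0.46). The 12 genes of naive and memory T cells were all measured in CD8 T cells, with 3 upward and 2 downward in BL/6, 3 upward and 1 downward in SM/J, and medians of 0.11 and 0.20, where 5.01% and 7.37% of all genes were upward and 12.1% and 6.89% downward. Ccr7, a lymph node homing receptor, had a log2 ratio of 1.37 (1.02 to 1.72) for BL/6 but -0.69 (-1.13 to -0.27) for SM/J, and S100a4, high in effector memory cells, had -2.42 (-2.74 to -2.11) and 2.06 (1.28 to 2.88), with overlapping aliquots in SM/J. Of the 10 regulatory T cell genes, 4 were measured in other T cells, with 1 upward in BL/6 (Izumo1r), where 3.48% of all genes were, and 0 in SM/J. The genes of these lists given with log2 ratios were chosen by those ratios, as past the fold in both strains, and the others named beside a count were picked out after their values were seen.

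Over the 24 profiles of 6 cell classes in 4 libraries, the genes whose log2(CPM + 1) was most like that of a member were, for Tox, Cd247 (Pearson r 0.99), Gm2682 (0.99) and Trbc1 (0.98), and for Tigit, Sh2d1a (0.98), Gm2682 (0.98) and Trbc1 (0.98). For Cd160 they were Gm14029 (0.99), Ifng (0.98) and Fasl (0.97), and for Eomes, Samd3, Ctsw and Cst7 (0.99 each). For Havcr2 they were Cd300c2 (0.95), Zfyve9 (0.93) and Clec4a4 (0.93), and for Ctla4, Gm37065 (0.93), S1pr1 (0.91) and Adi1 (0.91). For Batf they were Kif1b (0.88), Ntrk3 (0.81) and Ski (0.81), among the 12089 compared. Profiles of 1 library share its depth and run, and these values describe likeness only.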

How the data were processed

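Single-cell RNA of mouse blood mononuclear cells was read from 4 matrices, 1 for each strain and age, which come from 2 gene expression samples with their 2 tag libraries. The deposited values are raw UMI counts per gene and cell, made by the authors with Cell Ranger 7.0.1 per the file headers; the submitters' processing notes name Cell Ranger, Seurat 4.3.0 and the mm10 build (GRCm38). The annotation, the cell calling and whether introns were counted could not be learned from these sources.

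Cells were kept from 500 UMIs and 200 genes up, with a mitochondrial limit of 10%, and 125 called doublets were left out (scanpy 1.11.5, expected rate 0.06). Clusters came from 2000 variable genes, 30 components, 15 neighbours and Leiden resolution 1, and were named by marker lists, so names were rebuilt and are not the authors'. UMIs were summed per class and library. Ratios are log2 of CPM + 1, with exact conditional binomial 95% intervals, and shares have exact Clopper-Pearson intervals. A UMI count of 0 was given a floor of 3 UMIs where a fold was needed. Intervals cover counting error only, and no p-value was computed because each strain and age has 1 library. For each list, up to 4 genes past 1.5-fold in both strains in the same direction and up to 2 in opposite directions were named, and for each member the 3 most similar genes were computed. The ratio code was tested on simulated counts. TMM factors came from edgeR 4.0.16. The members, the lists and the naming of clusters were chosen with earlier results of these data known. Of per-sample columns, 0 were left unused.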

Additional observations from a re-analysis of the deposited data

How the results depend on the processing

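The measured ratios of the 9 genes, except Tox in B-like cells, and those of their sum in T cells were recomputed under up to 14 alternatives (15 in B-like cells, where clusters 19 and 25 were also left out) and with each of 12 aliquots left out. Ratios within subsets and of genes from the other lists were not. The lower Cd160 of BL/6 at 20 months (CD8 and other T cells), the higher Batf there (CD8 T cells and classical monocyte-like cells), the lower Havcr2 of SM/J in nonclassical monocyte-like cells and the higher Ctla4 of its B-like cells at 20 months stayed past 1.5-fold in every setting run. Of the ratios past the fold, 3 turned: Ctla4 between strains at 12 months in CD8 T cells (0.043 as a mean over cells), Havcr2 between strains at 20 months in classical monocyte-like cells (0.051 at the finer clustering), and Tox with age in NK-like cells of SM/J, which ran from -0.97 to 0.34 as aliquots were left out. Ratios short of the fold also changed sign, such as Tox with age in CD8 T cells of BL/6 (0.82 thinned). The cause was not tested.

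The summed level of the 9 genes also moved. In CD8 T cells of BL/6 its age ratio was -0.46 with at least 2 CD8 UMIs, -0.48 with a mitochondrial limit of 5%, 0.11 thinned to 1000 UMIs, 0.18 as a mean over cells and 0.025 without marker-positive T cells. Its strain ratio in CD8 T cells at 12 months was 0.030, 1.15, 0.29 and 0.053 with the 5% limit, thinned, as a mean over cells and without marker-positive cells, and at 20 months 0.62 and 1.05 with the 5% limit and thinned. Leaving out aliquots gave -0.16 to 0.53 for the SM/J age ratio and -0.12 to 0.58 for the 20-month strain ratio. In other T cells the SM/J age ratio was 0.20 in T cell-like clusters, 0.39 thinned and 0.20 as a mean over cells. Between strains it was -0.43 thinned at 12 months, and -0.090 thinned and -0.084 as a mean over cells at 20 months. The cause was not tested.

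The share of all genes past the fold rises as fewer UMIs are required. For CD8 T cells of BL/6 it was 43.5% with no minimum, and for those of SM/J 25.1%, 7.52% and 53.8% with 20, 100 and no UMIs required. Other T cells of BL/6 gave 16.4%, 5.95% and 38.8% with 20, 100 and no UMIs required, and other T cells of SM/J 21.9% and 47.2% with 20 and no UMIs required. TMM scaling moved ratios by at most 0.17 (log2), except by 0.29 between strains at 20 months in B-like cells. Alternatives that left under 20 UMIs gave no value, which was so for 31 thinned ratios. Depth limits Pdcd1, Lag3 and Tigit in T cells, which have too few UMIs to compare groups. No paired analysis was possible because each strain and age has 1 library.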
